A study of Mus musculus with 8 samples.

Results

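The genes described here are 47 members of the Wnt signalling pathway, taken by name as 10 ligands, 14 receptors, 10 inhibitors, 3 R-spondin agonists, 5 targets or feedback genes and 5 intracellular effectors, of 19057 genes with an annotated probe on the array. Their levels were measured in EGFP-positive cells sorted by flow cytometry from the vertebral column of mouse embryos at E12.5 (strain C57BL/6J;129), on 4 arrays labelled Bapx1 null and 4 labelled Bapx1 wildtype. Bapx1, listed on the array as Nkx3-2, is a homeodomain transcription factor of the developing axial skeleton. Null embryos were homozygous for Bapx1 tm4.Tlu, in which EGFP was placed behind the start codon of Bapx1. The wildtype embryos carried 1 copy of Bapx1 tm2.Tlu, in which an internal ribosomal entry site and EGFP follow the coding sequence and leave Bapx1 intact. Both reporters were thus driven from the Bapx1 locus, and their copy number and the way EGFP was translated differed along with genotype, so that an effect of either on which cells were sorted cannot be told apart from an effect of the loss of Bapx1. The replicates are described as biological, and the sources used here do not say whether a replicate was a single embryo or several.

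Wnt proteins are secreted lipid-modified ligands that bind Frizzled receptors together with the co-receptors Lrp5 and Lrp6, or signal through the receptor kinases Ror1 and Ror2. In the canonical branch, binding stops the degradation of beta-catenin, which then enters the nucleus and acts with TCF/LEF proteins on target genes such as Axin2 and Sp5. Secreted frizzled-related proteins, Dickkopf proteins, Wif1 and Apcdd1 dampen the signal outside or at the surface of the cell, and R-spondins strengthen it. Around the developing spine some of the ligands come from the neural tube and the surface ectoderm, and canonical signalling is known to hold back the formation of cartilage.

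A probe is named below by its array identifier where a gene had more than 1, and a level is the log2 of the background-corrected, quantile-normalized intensity. The platform annotation gave probes for 46 of the 47 genes, and Tcf7, a TCF/LEF factor, was not analysed here. Of 86 annotated probes, 79 could be tied to an intensity, and the Dickkopf gene Dkk2 and the frizzled-related gene Sfrp4 had none among these. A probe was tested where its detection p was under 0.05 on at least 4 of the 8 arrays, which kept 53 probes of 35 Wnt genes and 19965 probes in all. Of the 79 Wnt probes, 43 were detected on all 8 arrays and 16 on none. Where a gene had several tested probes, the one brightest over the 8 arrays stands for it. A probe was called where its limma p, adjusted by Benjamini-Hochberg over all 19965 probes, was under 0.05. Levels of different probes cannot be ranked against each other, because probes differ in brightness for the same amount of RNA.

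The arrays differed in ways that touched the Wnt genes. From 43.3% to 45.8% of probes were detected on the null arrays and from 41.0% to 45.6% on the wildtype arrays. Null replicate 1 correlated on average at 0.972 with the other null arrays and at 0.976 with the wildtype arrays, whereas the other 3 null arrays were closer to their own group. Wildtype replicate 2 had the lowest share of detected probes, and its mean correlation with its own group was 0.969. Nkx3-2 itself was detected on 4 of 4 null arrays and on 0 of 4 wildtype arrays by probe ILMN_2687592, at least 3.67-fold higher in the null (adjusted p = 0.0435, limma; called in 1 of the 8 fits without 1 array, that without null replicate 1, and at adjusted p up to 0.134 in the others). This probe passed the filter only through the null, where it is high, and that filter favours a positive difference. A second probe, ILMN_2687594, was detected on 3 null arrays and no wildtype array and was not tested. The sources used here place neither probe on the alleles, so they check no label.

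In the null cells, 3 of the 53 tested Wnt probes were called and all 3 were higher, those of Sp5, Fzd10 and Apcdd1, and no Wnt probe was called lower. In bulk samples of this kind, fewer cells of a type and less RNA per cell cannot be told apart. The calls made up 5.66% of the Wnt probes, where 0.781% of all probes were called (0.386% higher and 0.396% lower). The 4 null values lay above the 4 wildtype values for 7 Wnt probes and below them for 3, which was 13.2% and 5.66% of the Wnt probes, against 4.76% and 6.05% of all probes (10.8% together). At an unadjusted p under 0.05, 17 Wnt probes were higher and 3 lower, or 37.7% of the 53, against 21.7% of all probes. With 1 probe a gene, 24 of the 35 genes had a positive difference and 11 a negative one. The median difference of these genes was 0.20 on the log2 scale, and that of all probes tested was -0.04. These counts and medians hold Wnt11 and other genes that were not detected on every array. Of the 30 genes whose probe was detected on all 8 arrays, 20 had a positive and 10 a negative difference, with a median of 0.19, against -0.05 for all probes detected on all 8 arrays. Under scaling by the median absolute deviation, which put the median of all probes at -0.26, the medians of all Wnt classes but the ligands were negative.

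**Figure D1:**
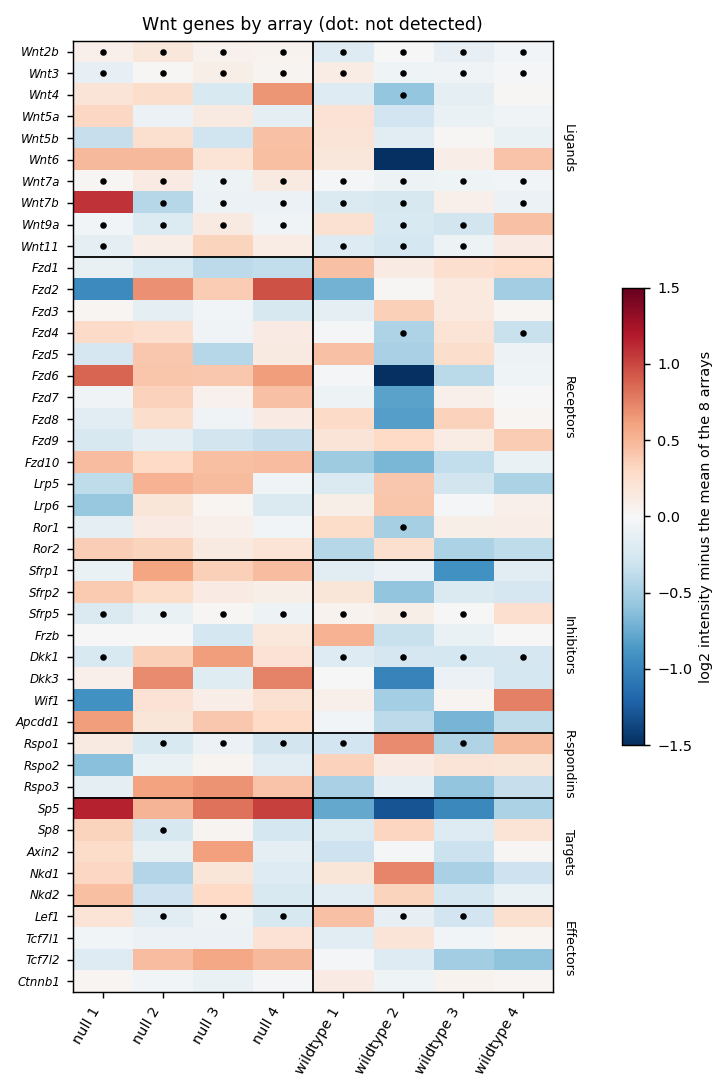
Colour shows the log2 intensity of 1 probe for each of 44 Wnt genes on each array, less the mean of that probe over the 8 arrays, with null arrays left of wildtype arrays and genes grouped by class; a dot marks an array on which the probe was not detected, and genes with no tested probe are shown by the probe detected on most arrays. Sp5, Fzd10 and Apcdd1 are raised on all 4 null arrays, and wildtype replicate 2 is low for Wnt6, Fzd6 and Dkk3.

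Sp5, a zinc finger transcription factor that Wnt signalling induces directly, had the largest difference and the smallest p of the 53 tested Wnt probes. Its probe read 8.80, 8.16, 8.47 and 8.67 in null replicates 1 to 4, against 6.88, 6.35, 6.68 and 7.18 in wildtype replicates 1 to 4. The lowest null value, that of replicate 2, stood well above the highest wildtype value, that of replicate 4. The means were 8.52 ± 0.28 in the null and 6.77 ± 0.35 in the wildtype (SD, n = 4 each), a difference of 1.75 ± 0.20 (standard error) or 3.37-fold (adjusted p = 0.00755, limma). The call was kept in all 8 fits that left out 1 array, with adjusted p between 0.00387 and 0.0367.

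The stretch upstream of Sp5 is shown because it holds the letters TCF/LEF proteins are known to bind. Promoters, the bases just before and after the annotated start, were taken from RefSeq (GRCm38.p6) for 33 of the 47 Wnt genes. They were searched on both strands for 3 words of equal length that differ only in their last letters, namely CTTTGAT, then also CTTTGTT, then also CTTTGAA. In the lines that follow the capitals mark the match, and each is read on the plus strand. Positions are counted from the annotated start. The upper match lies at position -104 and runs in the direction of the gene, and the lower lies at position -222 and is CTTTGTT read from the opposite strand, at chr2:70474809-70474835 and chr2:70474691-70474717.
Sp5 -104: gcaaggccccCTTTGATcaggaaaatc
Sp5 -222: tcctagagatAACAAAGacactttgtc
At least 1 of these 3 words stood in 8 of the 33 Wnt promoters (24.2%) and in 15.7% of all 27025 promoters in the table. Besides Sp5 they were those of Dkk1, Fzd7, Sp8, Tcf7l2, Wnt11, Wnt3 and Wnt5b, none of which was called, and Dkk1 and Wnt3 were not tested. Sp5 was the only one of the 33 with both CTTTGAT and CTTTGTT. The promoter of Fzd10 held none of the words, which says only that these letters are not in this window.

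The other word searched was that known for Bapx1, TGAGTG or TAAGTG, again on both strands. It stood in 5 of the 33 Wnt promoters (15.2%), against 26.8% of all promoters. The promoter of Axin2 is shown as that of a canonical target and the promoter of Fzd1 as that of a receptor with lower readings in the null. The Axin2 match lies at chr11:108920256-108920281 on the plus strand and the Fzd1 match at chr5:4758446-4758466, printed on the minus strand, where the word reads from the opposite strand.
Axin2: acgcgggagcTGAGTGtgccacgggg
Fzd1: cgcagCACTCAaagtagcagt
The promoters of Sfrp5, Wif1 and Wnt11 were the others with this word. These are matches of letters only, and binding was not measured on the arrays.

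None of the other 4 targets was called. Axin2, a scaffold of the beta-catenin destruction complex whose transcription is a common readout of canonical signalling, read 9.12, 8.73, 9.46 and 8.70 in the null and 8.53, 8.82, 8.52 and 8.86 in the wildtype. Null replicates 1 and 3 were above every wildtype array and null replicates 2 and 4 were inside the wildtype range, so the groups overlapped. The difference was 0.32 ± 0.18 (standard error, adjusted p = 0.332, limma). Nkd1, an inhibitor of the pathway that Wnt signalling induces in turn, read 7.94, 7.18, 7.80 and 7.43 in the null and 7.80, 8.35, 7.14 and 7.31 in the wildtype. The highest and the lowest of these values, by probe ILMN_2696611, were both wildtype. The difference was -0.07 ± 0.27 (adjusted p = 0.910, limma), with its sign turned under other settings. The second tested probe, the dim ILMN_2916283, differed by -0.30 ± 0.16 (adjusted p = 0.307). It was detected on 1 null and 3 wildtype arrays, so the filter favours a negative difference there. Nkd2, a relative of Nkd1, differed by 0.10 ± 0.21 (adjusted p = 0.794). Sp8, a zinc finger factor related to Sp5, differed by -0.06 ± 0.18 (adjusted p = 0.857) and was detected on 3 null and 4 wildtype arrays. With Sp5 and Axin2 included, the median difference of the 5 target genes was 0.10, and -0.16 under scaling by the median absolute deviation. Of 7 further targets kept in a separate list, 3 were tested and none was called, with a median of 0.60. Tnfrsf19 differed by 0.60 and Ccn4 by 0.75 by its brightest probe (adjusted p = 0.132 and 0.169, limma), both without overlap of the groups. The second tested probe of Ccn4 differed by 0.37 and overlapped. The tested probes of Ccnd1 disagreed in sign (0.10, 0.20 and -0.51), and the negative one was lower without overlap. Of the 6 tested probes of these targets, 2 were thus higher and 1 lower without overlap, against 4.76% and 6.05% of all probes.

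Among the receptors all 14 genes had a tested probe, 1 of them was called, and 9 had a positive and 5 a negative difference by their brightest probe (median 0.18, or -0.04 under that scaling). Fzd10, a Frizzled known from the dorsal neural tube and the limb bud of the embryo, was called higher. It read 8.95, 8.78, 8.94 and 8.95 in the null, against 7.95, 7.80, 8.11 and 8.39 in the wildtype. The null arrays lay within a narrow band above every wildtype array, and wildtype replicate 4 came closest to it. Fzd10 averaged 8.90 ± 0.08 in the null and 8.06 ± 0.25 in the wildtype (SD, n = 4 each), 1.79-fold higher in the null (difference 0.84 ± 0.14, standard error, adjusted p = 0.0333, limma). Its second tested probe, ILMN_2640796, read 6.22, 5.57, 5.51 and 5.74 in the null and 5.14, 5.17, 4.91 and 5.19 in the wildtype. These groups did not overlap either, although this probe was not called (difference 0.66 ± 0.17, adjusted p = 0.0883), and its remaining probe was detected on no array. The Fzd10 call was kept in 3 of the 8 fits without 1 array, those without null replicate 1, wildtype replicate 2 or wildtype replicate 4, and ended in the other 5, where adjusted p was 0.0765 to 0.132. Under scaling by the median absolute deviation the difference of Fzd10 was 0.45 (adjusted p = 0.269), and with no filter its adjusted p was 0.0586.

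Fzd6, a Frizzled of the planar polarity branch, gave the largest receptor difference but was not called. Probe ILMN_2775016 read 8.84, 8.39, 8.37 and 8.60 in the null, against 7.94, 6.14, 7.57 and 7.91 in the wildtype. The groups did not overlap, and wildtype replicate 2 stood far below the other 3 wildtype arrays. The difference was 1.16 ± 0.36 (2.24-fold; adjusted p = 0.128, limma), and without wildtype replicate 2 it was 0.75 (adjusted p = 0.0758). The second probe, ILMN_3004386, differed by 1.36 ± 0.34 (adjusted p = 0.0886), with wildtype replicate 2 again lowest, at 5.66. There null replicate 1, at 7.03, was barely above wildtype replicate 1, at 7.02.

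A pair of Frizzled genes had lower readings in the null. Fzd1 read 10.72, 10.60, 10.44 and 10.46 in the null, against 11.27, 10.96, 11.08 and 11.13 in the wildtype. Every null array was below every wildtype array, with null replicate 1 nearest to the wildtype, and the difference was -0.56 ± 0.12 (1.47-fold lower; adjusted p = 0.0634, limma). Fzd9 read 4.93, 5.03, 4.90 and 4.83 in the null and 5.36, 5.47, 5.29 and 5.55 in the wildtype. These groups did not overlap either, at levels near the limit of detection (difference -0.50 ± 0.11, 1.41-fold lower, adjusted p = 0.0724). Neither gene was called with 8 arrays. Without null replicate 1 both were, at differences of -0.61 (adjusted p = 0.0125) for Fzd1 and -0.50 (adjusted p = 0.0239) for Fzd9.

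The remaining receptors overlapped between the groups. Ror2, a receptor kinase for Wnt5a with known roles in cartilage and limb outgrowth, read 9.64, 9.60, 9.40 and 9.47 in the null and 8.83, 9.50, 8.79 and 8.89 in the wildtype. Only wildtype replicate 2 reached the range of the null arrays, and the difference was 0.52 ± 0.17 (adjusted p = 0.138, limma). Fzd2 differed by 0.53 ± 0.38 and varied widely among the null arrays, with null replicate 1 at 9.34 and null replicate 4 at 11.24 (adjusted p = 0.430). Fzd7, Fzd4 and the co-receptor Lrp5 had differences of 0.40, 0.31 and 0.28, and Fzd8, Ror1 and Fzd5 of 0.08, 0.02 and -0.07, with adjusted p between 0.283 and 0.968. The probes of Lrp6, the other co-receptor, disagreed in sign (-0.28 and 0.47), as did those of Fzd3 (-0.34, -0.20 and 0.15), so neither gene is given a direction.

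**Figure D2:**
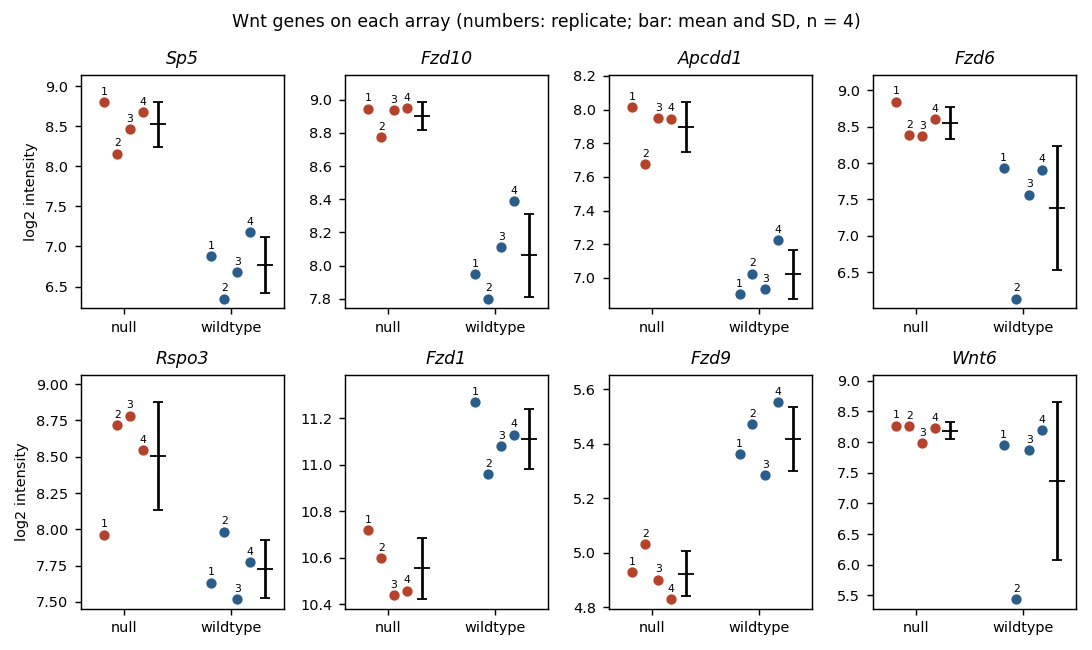
Points are log2 intensities on the 4 null arrays (left, red) and the 4 wildtype arrays (right, blue) for 1 probe of each of 8 Wnt genes, numbered by replicate, and bars give the mean and SD; each panel has its own log2 axis, which does not start at 0. Sp5, Fzd10 and Apcdd1 (probe ILMN_2965660) are called higher in the null, Fzd6 is above and Fzd1 and Fzd9 are below the wildtype on every null array without being called, and Rspo3 and Wnt6 overlap.

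Of the inhibitors, 6 of 10 genes had a tested probe. Their median difference was 0.54, with 4 genes positive and 2 negative, and it was -0.29 under scaling by the median absolute deviation. Apcdd1, a membrane glycoprotein that binds Wnt ligands and Lrp5 and is itself induced by the pathway, was called higher by 1 of its 2 tested probes. Probe ILMN_2965660 read 8.02, 7.68, 7.95 and 7.95 in the null, against 6.90, 7.03, 6.93 and 7.23 in the wildtype. No array of one group reached the other, and the means were 7.90 ± 0.15 in the null and 7.02 ± 0.15 in the wildtype (SD, n = 4 each; 1.83-fold higher in the null; difference 0.87 ± 0.13, standard error; adjusted p = 0.0187, limma). The brighter probe, ILMN_2726030, read 10.42, 9.97, 10.19 and 10.09 in the null and 9.75, 9.40, 9.09 and 9.41 in the wildtype. It showed the same separation with a wider spread in the wildtype and was not called (difference 0.75 ± 0.16, adjusted p = 0.0640). The call of ILMN_2965660 ended without null replicate 3 or 4 or wildtype replicate 1 or 3, at adjusted p of 0.0523 to 0.0851, and was kept without any 1 of the other 4 arrays. Under scaling by the median absolute deviation it ended as well (0.69, adjusted p = 0.192), and the difference of ILMN_2726030 was 0.12.

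The secreted frizzled-related genes Sfrp1 and Sfrp2, whose proteins bind Wnt ligands outside the cell, had higher readings on most null arrays and were not called. Sfrp1 read 11.10, 11.79, 11.56 and 11.66 in the null and 11.04, 11.12, 10.30 and 11.05 in the wildtype, and its second probe, ILMN_2604282, read 9.98, 11.40, 10.38 and 11.21 in the null and 10.40, 10.15, 9.12 and 9.50 in the wildtype. Null replicate 1 fell inside the wildtype range by both probes and wildtype replicate 3 was lowest by both (differences 0.65 ± 0.21 and 0.95 ± 0.36; adjusted p = 0.145 and 0.179, limma). Sfrp2 read 13.12, 13.01, 12.85 and 12.82 in the null and 12.91, 12.14, 12.51 and 12.48 in the wildtype. Wildtype replicate 1 was inside the null range and the other 3 wildtype arrays were below it (difference 0.44 ± 0.16, adjusted p = 0.174). Under scaling by the median absolute deviation their differences were -0.38 and -0.84.

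Dkk3, a divergent member of the Dickkopf family, read 10.12, 10.75, 9.87 and 10.79 in the null and 10.05, 9.05, 9.96 and 9.78 in the wildtype. Null replicates 1, 2 and 4 were above every wildtype array and null replicate 3 was inside their range (difference 0.67 ± 0.27, adjusted p = 0.196, limma), and its second probe differed by 0.45 ± 0.24. Dkk1, the Dickkopf that blocks Lrp5 and Lrp6, did not pass the filter and is named after its values were seen: it was detected on null replicates 2, 3 and 4 and on no wildtype array, at 4.44, 5.02, 5.29 and 4.88 in the null and 4.47, 4.41, 4.40 and 4.42 in the wildtype. Measured against the dimmest detected signal of the wildtype arrays, its null mean was at least 1.01-fold higher, so its size is not set by these arrays. Frzb, a frizzled-related protein of cartilage, and Wif1, which binds Wnt ligands directly, differed by -0.05 ± 0.18 and -0.18 ± 0.31 (adjusted p = 0.901 and 0.751). Sfrp5 was detected on 1 array, a wildtype one.

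No R-spondin was called, and the 2 tested genes differed in sign by their brightest probe. Rspo3, an agonist that acts through Lgr receptors, read 7.96, 8.72, 8.78 and 8.55 in the null and 7.63, 7.99, 7.52 and 7.77 in the wildtype by probe ILMN_3162785. Null replicates 2, 3 and 4 were above every wildtype array, whereas null replicate 1 was just below wildtype replicate 2 (difference 0.78 ± 0.19, 1.71-fold, adjusted p = 0.0855, limma). The other probe, ILMN_2736451, read 7.22, 6.63, 6.82 and 6.42 in the null and 6.90, 7.21, 7.05 and 6.54 in the wildtype, with null replicate 1 the highest of all 8. It differed by -0.15 ± 0.20, so the probes of Rspo3 disagreed in sign. Without null replicate 1 probe ILMN_3162785 was called higher (0.96; adjusted p = 0.00557) and the other stayed negative (-0.30; adjusted p = 0.257). Rspo2, which is needed for limb outgrowth, read 7.85, 8.37, 8.52 and 8.32 in the null and 8.82, 8.60, 8.67 and 8.66 in the wildtype. All null arrays were below all wildtype arrays, null replicate 1 by most, and the probe was not called (difference -0.42 ± 0.15, adjusted p = 0.167). Rspo1 was detected on 1 null and 2 wildtype arrays and was not tested.

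The ligands had no called probe, and 5 of the 10 genes had a tested one. All 5 differences were positive by the brightest probe, from 0.02 to 0.82. Of these 5, 3 genes were detected on all 8 arrays, with a median of 0.11. Wnt6, a ligand known from the surface ectoderm, read 8.27, 8.27, 7.98 and 8.23 in the null and 7.95, 5.44, 7.87 and 8.20 in the wildtype, and the groups overlapped. The mean difference of 0.82 ± 0.52 (adjusted p = 0.371, limma) rested on wildtype replicate 2, which was more than 2 log2 units below every other array, and without it the difference was 0.18 (adjusted p = 0.462). A second probe gave the same picture, with wildtype replicate 2 at 5.47. The third probe, the dim ILMN_2491759, read 4.57, 5.30, 5.31 and 5.77 in the null and 4.86, 4.48, 4.85 and 4.64 in the wildtype, where null replicate 1 was low and wildtype replicate 2 did not stand apart (difference 0.53 ± 0.23, adjusted p = 0.217).

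Wnt4, a ligand with roles in cartilage and joints, read 5.52, 5.59, 5.10 and 6.00 in the null and 5.14, 4.75, 5.18 and 5.34 in the wildtype. Null replicate 3 lay inside the wildtype range and wildtype replicate 2 was not detected (difference 0.45 ± 0.20, adjusted p = 0.225, limma). Wnt5a, the main non-canonical ligand of the embryo, differed by 0.11 ± 0.15 by its brightest probe and by -0.12 ± 0.23 by the next, and Wnt5b by 0.02 ± 0.19. Wnt11, another non-canonical ligand, was detected on 3 null arrays and 1 wildtype array and passed the filter only through the null, which favours a positive difference (0.20 ± 0.14, adjusted p = 0.421). It read 4.73, 4.98, 5.22 and 4.99 in the null and 4.69, 4.62, 4.80 and 5.01 in the wildtype, with the highest wildtype array above 3 of the 4 null arrays. Wnt2b, Wnt3 and Wnt7a were detected on no array. Wnt7b was detected on null replicate 1 and wildtype replicate 3 and Wnt9a on 2 wildtype arrays.

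No effector was called. Ctnnb1, which encodes beta-catenin and is regulated mainly at the protein level, read 13.81, 13.74, 13.68 and 13.76 in the null and 13.91, 13.72, 13.83 and 13.81 in the wildtype. The groups overlapped within a narrow band, and its 3 tested probes differed by -0.07, -0.16 and -0.11 (adjusted p = 0.720, 0.439 and 0.769, limma). Tcf7l1, a TCF factor that mostly represses, differed by 0.00 ± 0.13 (11.02, 10.98, 10.98 and 11.28 in the null and 10.89, 11.26, 11.02 and 11.09 in the wildtype). Null replicate 4 was the highest of the 8 and wildtype replicate 2 was next to it. A dim second Tcf7l1 probe passed only through the null. Tcf7l2, a TCF factor that can activate or repress, read 8.45, 9.11, 9.23 and 9.14 in the null and 8.62, 8.46, 8.13 and 8.05 in the wildtype by probe ILMN_2641647. Null replicate 1 was inside the wildtype range and the other 3 null arrays were above it (difference 0.67 ± 0.20, adjusted p = 0.122). Its other tested probes differed by 0.05 and -0.17, so the probes of this gene disagreed. Lef1, the remaining TCF/LEF factor measured, was detected on 1 null and 2 wildtype arrays and was not tested. Its probe ILMN_2648475 read 5.04, 4.68, 4.76 and 4.59 in the null and 5.27, 4.72, 4.54 and 5.08 in the wildtype, which overlapped.

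**Figure D3:**
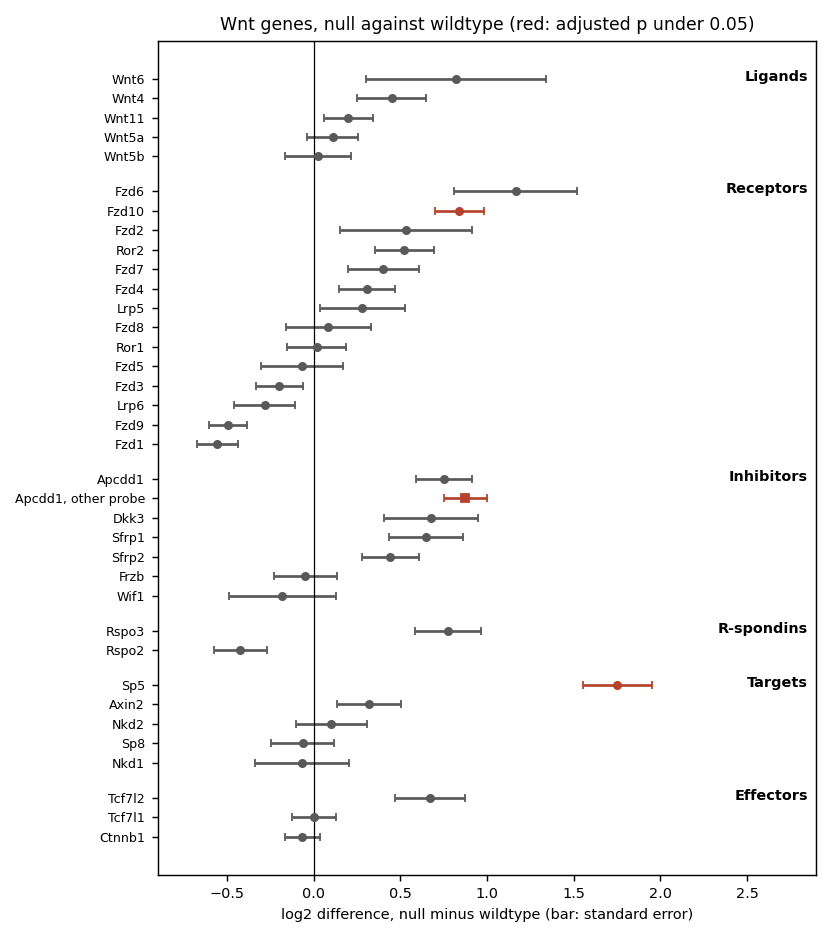
Points are log2 differences, null minus wildtype, with standard errors (4 arrays a group), for the brightest tested probe of each of 35 Wnt genes, grouped by class, and for the called Apcdd1 probe (square); red marks an adjusted p under 0.05. Sp5 (1.75), Fzd10 (0.84) and the Apcdd1 probe (0.87) are called, and Fzd1 (-0.56) and Fzd9 (-0.50) have the most negative differences.

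Of the arrays left out singly, null replicate 1 changed the count of Wnt calls most. Without it 14 of the 53 Wnt probes, of 12 genes, passed the threshold (26.4%), against 16% of all probes. Of these 14, 11 were higher and 3 lower. That was 20.75% and 5.66% of the Wnt probes, against 9.31% of all probes higher and 6.64% lower. Besides Sp5 and both tested probes of Apcdd1 and of Fzd10, those higher were 1 probe each of Rspo3, Tcf7l2, Fzd6, Wnt6, Fzd2 and Sfrp1, and those lower were Fzd1, Fzd9 and 1 probe of Fzd3. For Wnt6 the called probe was the dim ILMN_2491759 (0.75; adjusted p = 0.0202, limma). For Fzd6 it was ILMN_3004386 (1.61; adjusted p = 0.0165). Fzd2 then differed by 0.94 (adjusted p = 0.0338) and Tcf7l2 by 0.85 (adjusted p = 0.0128). Leaving out any other single array gave 1 to 4 Wnt calls, where 21 to 172 of all probes (0.105% to 0.862%) were called.

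Other genes of the pathway were read off the same fit. Of 80 other Wnt pathway genes, 53 had a tested probe, with a median difference of 0.05. By the brightest probe, 1 was called higher and none lower. That was Kremen2, which passed the filter only through the null, where it is high, and that filter favours a positive difference. It encodes a receptor that works with Dickkopf proteins to remove Lrp6 from the surface. It read 5.21, 5.32, 5.37 and 5.67 in the null and 4.56, 4.56, 4.80 and 4.61 in the wildtype, without overlap, and was detected on 4 null arrays and 1 wildtype array (difference 0.76 ± 0.13, adjusted p = 0.0361, limma). Tle1, a Groucho-type co-repressor that binds TCF/LEF proteins, was called lower by 2 of its 5 tested probes. Probe ILMN_2599402 read 9.55, 9.49, 9.38 and 9.36 in the null, against 10.25, 10.76, 10.14 and 10.16 in the wildtype (difference -0.88 ± 0.15, adjusted p = 0.0381). Its brightest probe gave -0.69 (adjusted p = 0.0545), and all 5 were negative. These calls were kept without null replicate 1, and that of ILMN_2599402 also without wildtype replicate 2, and ended in the other fits without 1 array, with adjusted p up to 0.124 for Kremen2 and 0.138 for Tle1. Notum, a secreted enzyme that inactivates Wnt ligands, differed by -0.998 ± 0.34 (adjusted p = 0.150), with null replicate 1 inside the wildtype range. None of the 15 tested genes of the destruction complex and its regulators was called. Of their 29 tested probes, 3 were higher and 4 lower at an unadjusted p under 0.05, or 24.1%, against 21.7% of all probes. The 9 tested genes of planar polarity had no call either, and of their 13 probes 4 were higher and 2 lower at that unadjusted threshold (46.2%). Of the 24 probes of nuclear partners, Tle1 included, 2 were higher and 7 lower (37.5%). For the other receptors it was 2 and 1 of 5 probes, for the further targets 2 and 1 of 6. All 93 tested probes of the other pathway genes gave 15 higher and 16 lower, or 33.3%. Among the higher were Kremen2 and a probe of Lgr6, which passed the filter only through the null. Among the lower was a probe of Axin1 that passed only through the wildtype. In each case the filter favours the direction seen.

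Markers of other cells moved with genotype, and their part in the Wnt differences was not tested. Of 12 cartilage and sclerotome markers, the cells the Bapx1 reporter is meant to label, 6 were called lower, and Sox9, the master factor of cartilage, was lower by 0.68 on the log2 scale in the null (adjusted p = 0.0275, limma, kept without null replicate 1 or wildtype replicate 2 and up to 0.129 without any 1 of the other arrays). Their summed intensity, in units of 1000, was 24.2 to 27.6 on the null arrays and 40.3 to 45.5 on the wildtype arrays. All 12 had a tested probe, and 9 were detected on every array. By the brightest probe 10 differences were negative and 2 positive, those of Meox1 (0.44, adjusted p = 0.216, limma) and Twist1 (0.02). Of the 24 tested probes of these markers, 11 were called lower, where 0.396% of all probes were. The 7 tested of 10 neuron markers all had positive differences, with sums of 3.41 to 5.45 in the null and 1.34 to 2.54 in the wildtype, and a probe each of Dcx and Elavl3 was called. The 6 tested of 7 meningeal markers summed to 3.56 to 4.95 in the null and 2.77 to 3.23 in the wildtype, and the 5 tested of 7 endothelial markers to 0.833 to 1.65 in the null and 0.223 to 0.583 in the wildtype, each with 1 gene called (Slc22a6 and Tek). Of the 8 fits without 1 array, 7 kept the call of Elavl3, 4 that of Slc22a6, 2 that of Dcx and 1 that of Tek, and the fit without null replicate 1 kept all 4. The 8 muscle markers summed to 1.60 to 4.69 in the null and 0.749 to 2.06 in the wildtype, which overlapped.

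Markers of the neural tube and the surface ectoderm, tissues known as sources of some Wnt ligands near the spine, gave mixed readings. Which cells gave these readings was not tested. Of 11 neural progenitor markers, 5 were tested, with 3 positive and 2 negative differences (median 0.37) and sums of 0.724 to 1.07 in the null and 1.02 to 1.59 in the wildtype. The sums lean on Nkx6-1, the brightest of the 5, which averaged 8.55 in the null and 9.81 in the wildtype, so they do not stand for the list. Pax6, Olig2, Sox1 and Sox3 were detected on no array. Nkx6-1 was called lower (-1.26, adjusted p = 0.0169, limma; not called without null replicate 2, 3 or 4). Sox2 was detected on 4 null arrays and no wildtype array by 1 probe, which was not called (0.73, adjusted p = 0.0941, limma). It passed the filter only through the null, which favours a positive difference. Another Sox2 probe was detected on 1 null and 2 wildtype arrays and was not tested. Fabp7 (0.71), Nes (0.37) and Msi1 (-0.67) were not called either. Of 6 roof plate and dorsal neural tube markers, Zic1 and Msx1 were tested. Zic1 was detected on all 8 arrays and averaged 12.66 ± 0.20 in the null and 12.49 ± 0.16 in the wildtype (SD, n = 4 each), and Msx1 was detected on 4 null and 3 wildtype arrays and differed by 0.56. Neither was called (adjusted p = 0.506 and 0.395, limma), and Lmx1a and Pax3 were detected on no array. The 5 tested of 9 surface ectoderm markers summed to 0.230 to 0.581 in the null and 0.233 to 0.417 in the wildtype, with Krt5 and Perp detected on no array. Wildtype replicate 2, the array with low Wnt6, Fzd6 and Dkk3, was also the lowest of the wildtype arrays in the neuron, endothelial, meningeal, muscle and surface ectoderm lists by mean log2 deviation. The 3 tested of 6 blood markers had no call, and wildtype replicate 4 was highest in them. The Wnt ligand list lay between 0.19 and 0.47 above the wildtype mean on the null arrays, against -0.56 on wildtype replicate 2 and 0.12 to 0.24 on the other wildtype arrays.

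**Figure D4:**
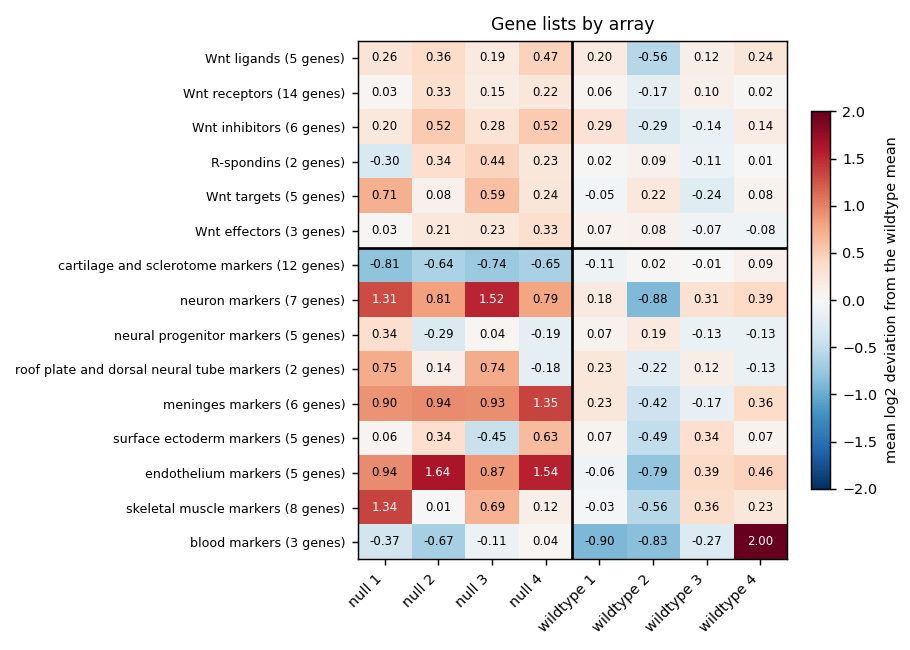
Each cell gives, for a list and an array, the mean over the tested genes of the log2 intensity less that gene's wildtype mean, with null arrays left of wildtype arrays, Wnt classes above the line and cell type markers below it. Cartilage markers are low and neuron, meningeal and endothelial markers high on all 4 null arrays, and wildtype replicate 2 is low in the Wnt ligand row (-0.56) and in most marker rows.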

How the data were processed

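RNA of sorted cells was labelled and hybridized to Illumina MouseWG-6 v2.0 BeadChips. The authors deposited background-subtracted intensity values prepared in GenomeStudio, with a detection p-value deposited as 1 minus p, and a table of log2 values with 1 baseline removed per probe. The authors scaled by the median absolute deviation and tested by analysis of variance. The intensity table names probes by address, so 35665 of 45281 (78.76%) were matched by value to the log2 table (tolerance 0.001, largest deviation 2.8e-06), and 34885 probes had 1 annotated gene. The tables shared 7 arrays, and 1 null column of the log2 table was not found among the intensities. Null replicates 1 to 3 of the intensity table, whose numbers are used here, matched null replicates 2 to 4 of the log2 table, and null replicate 4 matched none. Scale of the log2 values was found by this match, their probe baseline is unknown, and their direction is that of the labels.

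Here normexp with inferred negative controls (offset 16), quantile normalization and log2 were used, with lmFit and eBayes, in R 4.3.3 with limma 3.58.1. Probes needed a detection p under 0.05 on 4 of 8 arrays. The number of arrays, 4 a group, limits precision. The script was tested on simulated data. The methods' 2-group test and other settings were alternatives. The sources used here give no slide or scan date.

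The Wnt genes, lists and alternatives were chosen with earlier results of these data known, and the study's own pathway analysis of these samples singled out Fzd10, Sfrp2, Dkk3, Fzd6, Wnt6 and Sp5, so their counts are not independent evidence. Values per array are given for called genes, the 3 genes of smallest p in each class, up to 3 a class called without null replicate 1, and Axin2, Lef1 and Ctnnb1. A few others were named after their values were seen.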

Additional observations from a re-analysis of the deposited data

Results flagged for a closer look

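The null and the wildtype groups of 19 probes, those of the genes chosen by the rule above, were screened for single arrays apart. In 6 cases 1 array lay apart from the other 3 of its group. Its gap to the nearest, over the group's range, exceeded Dixon's critical value, which chance passes in about 1 of 20 groups of 4. Wnt6 read 7.98 in null replicate 3, the lowest of the null, and 5.44 in wildtype replicate 2, the lowest of the wildtype. Fzd10 read 8.78 in null replicate 2, below the other 3 null arrays and above all wildtype arrays. Sfrp1 read 10.30 in wildtype replicate 3, Tcf7l1 read 11.28 in null replicate 4, and Tcf7l2 read 8.45 in null replicate 1.

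The log2 table holds 1 null array that is not in the intensity table and entered only the fit on the authors' log2 values. Sp5 stood at 1.33 there, against -1.05 to -0.13 on the 4 wildtype arrays of that table (log2 relative to the baseline of the probe). Apcdd1 stood at 0.524 by its brighter probe and at 0.910 by the other, both above all 4 wildtype arrays. Fzd10 stood at 0.0844, which was below wildtype replicate 4, at 0.172. Rspo3 (probe ILMN_3162785) stood at -0.359, below all 4 wildtype arrays (-0.229 to 0.424), opposite in direction to its difference in the intensity table.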

How the results depend on the processing

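Sp5 was called under every setting except scaling by the median absolute deviation (1.55; adjusted p = 0.143) and the methods' t-test (adjusted p = 0.0805). With a floor of 16, 99 of all probes (0.496%) and 3 of the 53 Wnt probes were called. With an offset of 50 these counts were 232 (1.16%) and 5, and with a trend 248 (1.24%) and 5. Without a filter they were 75 of 45281 (0.166%) and 2 of 79. Array weights gave 6190 and 22, the methods' t-test after Benjamini-Hochberg 12 and 0 (3763 and 15 at an unadjusted p under 0.05), and the authors' log2 values 16 and 1. Scaling by the median absolute deviation gave 1 and 0 (5183 and 10 unadjusted), and moved the median of all probes to -0.262. Median centring moved it to 0.194, with 109 calls in all, 79.8% of them higher, against 49.4% in the fit described and 18.8% with the authors' log2 values. Leaving out 1 array gave 21 to 3185 calls in all and 1 to 14 of Wnt probes, and leaving out null replicate 1 and wildtype replicate 2 gave 4048 and 19. The cause of these shifts was not tested. Signal over background limits the rest: 16 of the 79 Wnt probes were detected on no array, so no difference could be read from them.

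With the replicate number as a block 20 probes were called, and 1 of the Wnt probes, Sp5. Arrays with the same number deviated together at correlations of -0.0492, -0.107, -0.195 and 0.0356 and no array correlated best with its own number, so the numbers do not pair the arrays.

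Of the class medians, median centring gave 0.374 for receptors, 0.477 for R-spondins and 0.186 for effectors, scaling by the median absolute deviation gave -0.0403, -0.199 and -0.988 for these and -0.288 for inhibitors, and the authors' log2 values gave 0.553 for ligands. Without 1 array they ranged over 0.125 to 0.283 for ligands, 0.0448 to 0.224 for receptors, 0.386 to 0.638 for inhibitors, 0.0871 to 0.336 for R-spondins, -0.0314 to 0.23 for targets and -0.0698 to 0.0661 for effectors.

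Signs turned under scaling by the median absolute deviation for Sfrp1 (-0.381), Sfrp2 (-0.837), Axin2 (-0.155) and Tcf7l1 (-0.988). They turned with the other probe for Rspo3 (-0.151) and Tcf7l2 (-0.173). Nkd1 was positive under median centring (0.224), with the authors' log2 values (0.116) and without both arrays named above (0.0526), and ranged over -0.237 to 0.169 without 1 array. Tcf7l1 was -0.0709 with the authors' log2 values and ranged over -0.0698 to 0.0661 without 1 array, with 0.082 without both.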
